A study of Rattus norvegicus with 3 samples.

Results

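Brainstem RNA labelled Hand Acu was set against brainstem RNA labelled TBI, traumatic brain injury, gene by gene, on a rat expression array. Of 14217 genes that the array's annotation names, the 9241 whose brightest probe set had a mean log2 signal at or above 7.44 are described. That floor is the median of all 31042 probe sets that are not controls, and a probe set is a group of short probes that together give 1 signal for a transcript. The gene's difference is its log2 signal on the Hand Acu array minus that on the TBI array, so 1 unit is a 2-fold difference. The remaining array, labelled Sham, entered the choice of probe set and the floor, and its values are given beside them.

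All 3 groups are rat brainstem taken 1 h after the modelling procedure. The labels name 5 rats and the study's design says that their samples were mixed; each group is taken as 1 pool of RNA on 1 array. Sham, TBI and Hand Acu are the treatment labels as given. They do not state strain, age or sex, where or for how long needles were placed, or whether the rats of the Hand Acu pool were also injured. With 1 array on each side no difference has an error and no test was made, so "higher" and "lower" below describe these arrays.

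The brainstem holds the nuclei that set breathing, heart rate and arousal, along with the fibre tracts that join brain and spinal cord. Touch and muscle afferents, the nerve fibres that needling stimulates, reach it directly and through the spinal cord. Within an hour of an injury, brain tissue typically turns on immediate early genes and then genes driven by stress hormones and cytokines, while matrix, glial and synaptic genes usually follow later. In bulk tissue, a lower signal from fewer cells of a type and one from less RNA per cell cannot be told apart.

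The values of the arrays were on a common scale. After 2% of probe sets were trimmed at each end, the mean linear signal was 500 on each array, and the median was 174.1 for TBI and 174.2 for Hand Acu. The 18 hybridisation controls were all lower on the Hand Acu array, by a median of -0.24, and 24 of 27 labelling controls were lower, by a median of -0.60. The ratio of 3' to 5' actin signal was 6.37 for TBI and 6.69 for Hand Acu. The part of these readings in the results was not tested. Some genes of cholinergic and serotonin neurons were read in the pools. Chat, the acetylcholine synthase, read 7.96 in TBI and 7.99 in Hand Acu, and Slc6a4, the serotonin transporter, 8.64 and 8.50. Of 8 cholinergic and motor neuron markers on the array, 4 lay above the floor, while Isl1, Isl2, Lhx4 and Slc18a3 lay below it. Of the Hox genes that mark the hindbrain, 3 of 12 lay above the floor (Hoxa5, Hoxb2 and Hoxb3), while the noradrenaline genes Dbh and Slc6a2 and the serotonin neuron factor Fev lay below it. The pools also read genes from outside the brainstem, among them Oxt and Avp of the hypothalamus, Pcp2 of the cerebellum and Drd1 of the striatum.

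Most genes were close on both arrays. The median difference was -0.00 (SD over genes 0.19), and 64.9% of genes lay within 1.1-fold. By any amount, 4555 genes (49.3%) were higher on the Hand Acu array and 4686 (50.7%) lower. At a difference of 0.32 or more, a ratio of 5 to 4, 373 (4.04%) were higher and 381 (4.12%) lower. At 1.5-fold or more, 57 (0.617%) were higher and 55 (0.595%) lower. At 2-fold, 3 (0.0325%) were higher, namely Col4a2, Lrrc4 and Tchp, and 1 (0.0108%) was lower, Fbxo41.

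The spread over genes narrowed as signal went up. Between log2 signals of 7.44 and 8 the SD was 0.28, and 4.19% of 1003 genes were at least 1.5-fold apart. Between 9 and 10 these values were 0.17 and 0.846%, and at 12 and above they were 0.086 and 0.155% of 646 genes. So a 1.5-fold difference is more frequent in dim genes than in bright genes, though a minority reading in both. Higher and lower calls were near equal in number in the dim bands (22 and 20 in the lowest). Just inside the floor Trex1 differed by -0.51 at a mean of 7.44, and just outside it Slc35f1 differed by 0.70.

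**Figure D1:**
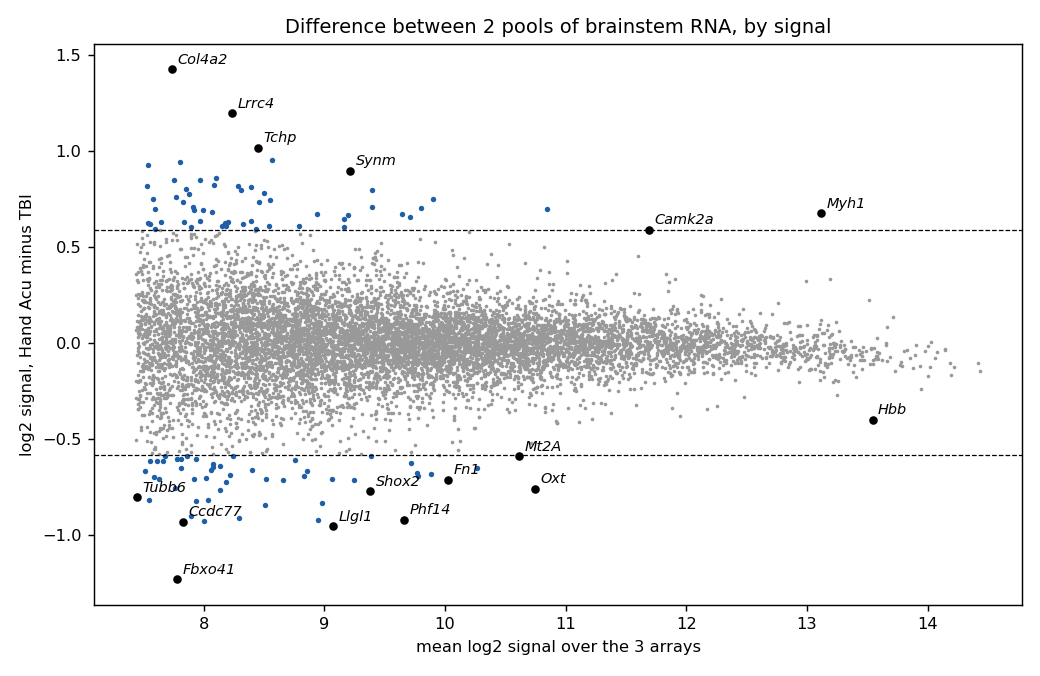
Each point is 1 of 9241 genes, with mean log2 signal over 3 arrays on the horizontal axis and the log2 difference, Hand Acu minus TBI, on the vertical axis. The cloud narrows to the right, from an SD of 0.28 in the dimmest band to 0.086 in the brightest.

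Of the 112 genes at least 1.5-fold apart, 94 were read by 1 probe set above the floor. The other 18 had a second one, which went the same way for 9 of them. Over all 2073 genes that had such a second reading it went the same way for 54.0%. For 11 of the 112 the TBI signal, and for 13 the Hand Acu signal, was itself below the floor.

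The highest difference belonged to Col4a2, the alpha-2 chain of type IV collagen, which forms the sheet of the basement membrane around brain vessels. Its log2 signal was 8.19 in Sham, 6.80 in TBI and 8.23 in Hand Acu, a difference of 1.42 or 2.68-fold. TBI is the array that stands apart, at a level below the floor, and Sham and Hand Acu are close. With an offset of 50 added before the log, which damps dim values, the difference was 1.11. Col4a1 encodes the alpha-1 chain, which joins Col4a2 in the same triple helix. One of its probe sets read 8.15 in Sham, 8.46 in TBI and 8.45 in Hand Acu, and another read 7.97, 7.95 and 8.15. In the first TBI and Hand Acu were level, and in the second TBI was the lowest array by a small margin.

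The genes Col4a1 and Col4a2 lie head to head and share the stretch between their starts, which is why it is shown beside their unlike readings. In RefSeq on GRCr8 it is 76 bases, chr16:84885521-84885596, printed on the plus strand, with Col4a1 running to the right on that strand and Col4a2 to the left on the minus strand. No letters are in capitals because no motif was marked here.

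Col4a1 and Col4a2: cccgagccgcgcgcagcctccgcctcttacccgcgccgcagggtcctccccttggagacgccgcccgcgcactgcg

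Other matrix genes were among the 25 lowest. Fn1, fibronectin of the vessel wall and plasma, read 10.15 in Sham, 10.32 in TBI and 9.61 in Hand Acu, or 1.64-fold lower in Hand Acu. Loxl1, an enzyme that cross-links elastin, read 7.76, 7.85 and 7.03 in the same order, with Hand Acu the lowest of the 3 and below the floor. Of 24 basement membrane and integrin genes, 2 were higher by 0.32 or more, Col4a2 and the laminin receptor Itga7 (0.41, or 0.80 averaged over its probe sets), and 1 was lower, Fn1. Their median was -0.01, the same as that of 19 collagen genes. Over all genes 4.04% were higher by 0.32 or more and 4.12% lower.

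Lrrc4 encodes a postsynaptic adhesion protein that binds netrin-G on the incoming axon. It read 7.86 in Sham, 7.83 in TBI and 9.02 in Hand Acu, a 2.29-fold difference, and here Hand Acu stood apart while the other arrays were close. With the mean of all its probe sets the difference was 0.63. Fbxo41, a brain F-box protein of ubiquitin ligases, read 8.02 in Sham, 8.28 in TBI and 7.05 in Hand Acu, 2.35-fold lower in Hand Acu and below the floor there. Shank3, the master scaffold of excitatory synapses, read 8.25, 8.35 and 7.42 in the same order. Clstn3, a synaptic calsyntenin, read 9.13, 9.32 and 8.40. For both, Sham and TBI were close and Hand Acu was lower, by 0.93 and 0.92. Llgl1, a cell polarity protein, followed the same order at 9.29, 9.44 and 8.48.

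Among 36 genes of synaptic adhesion and the postsynaptic scaffold, 24 were higher and 12 lower, with a median of 0.06. Over all genes 49.3% were higher and 50.7% lower. Past 0.32, 4 of the list were higher and 3 lower, beside 4.04% and 4.12% of all genes. The largest differences of this list thus lay on both sides. The higher members were Lrrc4, Lrfn3 (0.48), Sipa1l1 (0.41) and Baiap2 (0.39), and the lower ones were Shank3, Clstn3 and Ncam2 (-0.42). Of 18 further probe sets of these genes, 11 went the way of the one used. The other Shank genes were near 0, with Shank1 at 0.12 and Shank2 at -0.08, as was Clstn1 at -0.12.

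Genes read by several probe sets give a second measurement on the same arrays, though not a replicate of the condition. Of the 2073 such genes, 983 had all probe sets above the floor on one side, 452 higher and 531 lower. Every one of them was at least 0.32 apart for 9 genes, 1 higher and 8 lower. The higher one was Klhl8, an adaptor of cullin-3 ubiquitin ligase, at 0.39 and 0.51. The lower ones were Ccdc77, Prpf38b, Pygm, Klhl22, Cdkl4, Gpatch4, Stard10 and Cep43.

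Ccdc77, a coiled-coil protein, had the largest differences of these 9, -0.93 and -1.06. Its brighter probe set read 7.85 in Sham, 8.28 in TBI and 7.35 in Hand Acu, so Hand Acu was the lowest array. Gpatch4 encodes a nucleolar protein and had 3 probe sets above the floor. They read 9.57, 9.75 and 9.39, then 8.32, 8.43 and 7.90, then 7.09, 8.03 and 7.52, in the order Sham, TBI, Hand Acu. All 3 had TBI as the highest array, and Hand Acu lay below Sham in 2 of 3. Prpf38b, a splicing factor, differed by -0.51 and -0.67, and Pygm, the muscle form of glycogen phosphorylase that astrocytes also use, by -0.39 and -0.63.

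Probe sets below the floor did not always follow. For Klhl22 they read 0.05 and 0.94 against -0.39 and -0.61 above it, and with the mean of all its probe sets the difference was -0.00. Pygm was at -0.01 with that mean. Among the higher genes Ptpn1, the tyrosine phosphatase PTP1B that dampens insulin and leptin receptor signals, differed by 0.63 and 0.29. Med25, a Mediator subunit, differed by 0.32 and 0.33, and Cacnb1, a calcium channel beta subunit, by 0.27 and 0.39.

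**Figure D2:**
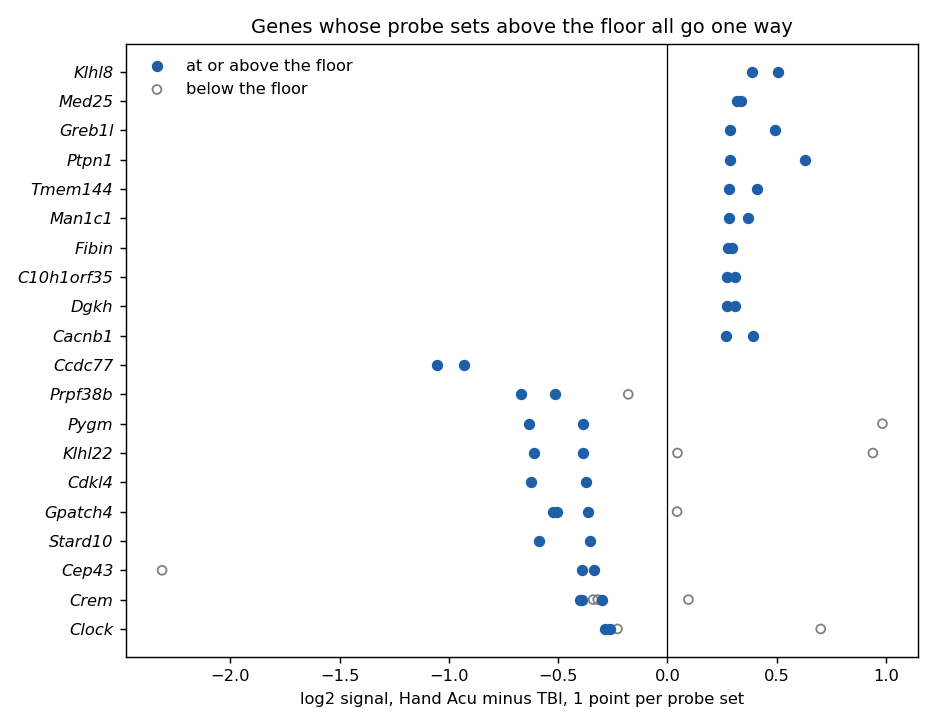
Each row is a gene whose probe sets above the floor all go one way, 10 higher and 10 lower, ranked by the smallest difference among them. Each point is 1 probe set, placed by its log2 difference, Hand Acu minus TBI. Filled points are at or above the floor of 7.44 and open points below it, such as those of Klhl22 at 0.05 and 0.94.

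Crem, the cAMP response element modulator, was lower in 3 of 3 probe sets above the floor. Crem encodes activators and repressors of cAMP-driven transcription, and its inner promoters give the short repressor ICER, itself induced by cAMP. The brightest probe set read 9.94 in Sham, 10.46 in TBI and 10.16 in Hand Acu. The next read 8.40, 8.92 and 8.53, and the dimmest read 7.78, 8.46 and 8.06. In all 3, TBI was the highest array and Hand Acu lay between it and Sham, with differences of -0.30, -0.39 and -0.40. Below the floor another 3 probe sets differed by -0.34, -0.32 and 0.10.

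A promoter of cAMP-responsive genes often holds the CRE, the 8-letter palindrome TGACGTCA, which reads the same on both strands. RefSeq on GRCr8 lists 3 Crem starts in the promoter table, and the letters before starts 2 and 3 hold 1 match each, shown in capitals, whereas the 120 bases before start 1 hold none. Over the 33469 promoter windows of that table, 1.587% hold the motif in the 250 bases before the start, a longer stretch than the 120 shown. A match is a run of letters and not a measured site. The stretches are chr17:58984677-58984796 and chr17:58985370-58985489, on the plus strand, each ending at the base before the start, with the match beginning 56 and 35 bases before it.

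Crem start 2: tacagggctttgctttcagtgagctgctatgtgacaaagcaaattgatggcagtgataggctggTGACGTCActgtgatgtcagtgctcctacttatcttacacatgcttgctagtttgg

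Crem start 3: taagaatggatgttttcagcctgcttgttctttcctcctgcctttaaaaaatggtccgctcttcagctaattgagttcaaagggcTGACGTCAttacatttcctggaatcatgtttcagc

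The classic immediate early genes are set beside Crem. Fos, the standard marker of recent cell activity, read 10.35 in Sham, 10.83 in TBI and 10.82 in Hand Acu, so both treated pools lay above Sham at nearly 1 level. Egr1 read 11.77, 11.69 and 12.04 in the same order, with Hand Acu the highest. Nr4a1, an orphan nuclear receptor, read 9.66, 9.25 and 9.68, and Atf3, a stress-induced repressor, read 7.80, 7.51 and 8.04. For Nr4a1 and Atf3 the TBI array was the lowest. Gadd45b, a stress and demethylation factor, went the other way at 8.05, 8.21 and 7.50.

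Of 32 immediate early genes above the floor, 21 were higher and 11 lower, beside 49.3% and 50.7% of all genes, with a median of 0.04. Past 0.32, 4 were higher (Atf3, Nr4a1, Egr1 and the phosphatase Dusp5 at 0.34) and 1 was lower, Gadd45b. Over all genes 4.04% were higher and 4.12% lower by as much. Of 12 further probe sets 10 went the way of the one used, where over all genes the second probe set did for 54.0%. Arc, Fosb, Junb and Homer1, which neuronal activity induces, were at 0.12, -0.12, -0.03 and 0.00.

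Clock-controlled genes differed in both directions. Dbp, an output factor of the clock, read 10.44 in Sham, 9.79 in TBI and 10.36 in Hand Acu. Per3 read 8.54, 7.37 and 7.92, and Nr1d1, which encodes REV-ERB alpha, read 7.72, 7.39 and 7.78. In these 3 the TBI array was the lowest. Nfil3, which represses the same sites that Dbp activates, was the mirror image at 7.69, 8.58 and 7.91. Clock itself was lower in both probe sets above the floor, by -0.29 and -0.26, although the mean of all its probe sets was at -0.02.

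Of 20 clock genes, 13 were higher and 7 lower, beside 49.3% and 50.7% of all genes, with a median of 0.04. Past 0.32, 4.04% of all genes were higher and 4.12% lower. The 3 clock genes higher by 0.32 or more were Dbp, Per3 and Nr1d1. The 2 lower were Nfil3 and Rora (-0.40, but 0.025 on average over its probe sets). Per1, Per2, Tef and Hlf were higher by 0.19, 0.22, 0.27 and 0.18. Of 10 further probe sets, 8 went the way of the one used, beside 54.0% for the second probe set over all genes.

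Mt2A, a metallothionein that binds zinc and copper and is induced by metals and glucocorticoids, was among the lower genes of good signal. It read 10.51 in Sham, 10.96 in TBI and 10.37 in Hand Acu, a difference of -0.59, so TBI was the highest array and the others were close. Mt3, the form enriched in brain, read 13.42, 13.42 and 13.36. Mt1 lay below the floor on all 3 arrays.

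Metal-induced genes carry metal response elements, and the letters before the Mt2A start are shown because Mt2A had the lowest difference among the glucocorticoid-responsive and antioxidant genes. The letters searched were TGCNCNC on both strands, where N is any base. That run is looser than the element's core, so a match need not be such an element. The 250 bases end at the base before the start, chr19:10838709-10838958, printed on the minus strand. They hold 5 matches, in capitals, that begin 220, 165, 111, 92 and 55 bases before the start, and none overlaps another. So short a run is common, with at least 1 match in 43.377% of windows, but 5 or more in only 0.37%.

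Mt2A start 1: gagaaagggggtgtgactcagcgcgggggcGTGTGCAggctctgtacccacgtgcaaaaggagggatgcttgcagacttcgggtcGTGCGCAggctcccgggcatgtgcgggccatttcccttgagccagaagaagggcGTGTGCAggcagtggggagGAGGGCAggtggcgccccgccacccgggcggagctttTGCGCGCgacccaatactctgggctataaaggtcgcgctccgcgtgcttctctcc

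Glucocorticoid-responsive genes were mostly lower, with a median of -0.14 and 16 of 24 on the lower side against 50.7% of all genes. Past 0.32, 6 were lower and 2 higher, where 4.12% and 4.04% of all genes were. Cdkn1a, the cell cycle inhibitor p21, read 9.01 in Sham, 9.55 in TBI and 9.16 in Hand Acu. Bcl6, a transcriptional repressor, read 10.85, 11.17 and 10.76, and Tgm2, a transglutaminase, read 8.24, 8.85 and 8.46. All 3 were highest on the TBI array, and Cdkn1a was at -0.92 when its probe sets were averaged. Angptl4 (-0.37) and the astrocyte connexin Gjb6 (-0.34) were the other 2 lower members beside Mt2A.

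Other glucocorticoid targets were nearer 0 or higher. Fkbp5, which restrains the glucocorticoid receptor, was at 0.00, and Tsc22d3, which encodes GILZ, was at 0.11. Sgk1, a salt-handling kinase, was at -0.14. Txnip, an inhibitor of thioredoxin, read 10.02 in Sham, 9.84 in TBI and 10.32 in Hand Acu, and Cebpd read 7.95, 8.43 and 8.80. These 2 were highest in Hand Acu. Of 5 further probe sets of the list, 3 went the way of the one used.

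Of 25 metallothionein and antioxidant genes, 17 were lower, beside 50.7% of all genes, with a median of -0.04. Hmox1, the haem-degrading enzyme induced by oxidative stress, read 7.70 in Sham, 7.71 in TBI and 7.19 in Hand Acu. Lower by at least 0.32 were 3 genes, Mt2A, Hmox1 and the extracellular dismutase Sod3 (-0.32), and Gpx3, an extracellular glutathione peroxidase, was higher (0.33). Over all genes 4.12% were lower and 4.04% higher by as much. Heat shock genes (24) had a median of -0.01 and genes of the unfolded protein response (23) of 0.02.

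Hypoxia and glycolysis genes (29) had a median of 0.06, which turned to -0.020 when all probe sets of each gene were averaged. Ankrd37, a target of hypoxia-inducible factor, read 8.06 in Sham, 7.62 in TBI and 8.31 in Hand Acu. Pgk1, a glycolytic kinase, read 12.91, 13.17 and 13.50. Hand Acu was the highest array for both. The other Pgk1 probe set above the floor was at -0.05, and the pair averaged 0.14. Pfkfb4, which sets glycolytic rate, differed by 0.63 in its brightest probe set and by -0.17 with the mean of all of them.

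Inflammatory genes were mostly too dim to describe, with 16 of 39 on the array above the floor and a median of -0.01. Interferon and antigen presentation genes (13 of 28) had a median of -0.08 and went both ways. Irf7, the master regulator of type I interferon, read 7.56 in Sham, 7.11 in TBI and 7.93 in Hand Acu, and Irf9, part of the interferon-stimulated complex, was higher by 0.48. Rsad2, an antiviral gene they induce, went opposite at 7.55, 8.33 and 7.79.

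Most, but not all, markers of the choroid plexus and of the ventricle lining read lower on the Hand Acu array. The choroid plexus secretes cerebrospinal fluid, and of its 11 markers on the array 9 lay above the floor. Of these 6 were lower, beside 50.7% of all genes, and 3 were higher, by at most 0.19, with a median of -0.24. Past 0.32, 2 were lower, Sostdc1 and Prlr, and 0 were higher, beside 4.12% and 4.04% of all genes. Sostdc1, a BMP antagonist, read 10.20 in Sham, 10.25 in TBI and 9.73 in Hand Acu. Prlr, the prolactin receptor, read 7.89, 8.08 and 7.32, although the mean of its probe sets gave -0.07. In both, Hand Acu was the lowest array, and for Prlr it lay below the floor. Igfbp2 and Folr1 differed by -0.32 and -0.28, and the thyroxine carrier Ttr, which read 13.93, 14.07 and 13.82, by -0.24. Their summed signal was 14.96 in Sham, 15.02 in TBI and 14.81 in Hand Acu on the log2 scale, and how far the amount of this tissue moved with other results was not tested.

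Ependymal cells line the ventricles and carry cilia. Of 6 of their markers above the floor 5 were lower, beside 50.7% of all genes, with a median of -0.21. Cfap126, a cilium protein, read 7.69 in Sham, 7.94 in TBI and 7.45 in Hand Acu, and Tmem212 read 7.67, 8.19 and 7.75. Dynlrb2, a cilium motor subunit, was lower by -0.25.

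Astrocyte markers were lower for 13 of 16, beside 50.7% of all genes, with a median of -0.12. The other 3 were higher by at most 0.19. Gfap, their intermediate filament, read 12.38 in Sham, 12.67 in TBI and 12.39 in Hand Acu. Fgfr3 read 10.91, 11.13 and 10.72, and with its other probe set, which went the other way, it averaged -0.14. For both, TBI was the highest array. Glul, glutamine synthetase, was lower in all 3 of its probe sets above the floor. Of the 16, 2 were lower by 0.32 or more and 0 higher, beside 4.12% and 4.04% of all genes. Of 10 further probe sets 5 went the way of the one used.

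Microglia markers were lower for 7 of 11, near the share of all genes (50.7%), with a median of -0.11. P2ry12, their purinergic receptor, read 9.92 in Sham, 10.43 in TBI and 9.98 in Hand Acu, while its other probe set was higher in Hand Acu and their mean was at -0.17. C1qb, a complement chain, read 8.81, 9.08 and 8.70. Blood genes above the floor were also lower in all 3 cases. Hbb, a haemoglobin chain, read 13.46 in Sham, 13.79 in TBI and 13.39 in Hand Acu, Alas2 differed by -0.26 and the platelet gene Pf4 by -0.14. The summed signal of these blood genes was 13.52, 13.85 and 13.46, and its part in the other results was not tested.

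Endothelial markers (16) were split, with 9 higher, 7 lower and a median of 0.02. Cd93, a surface receptor of vessel lining, read 7.71 in Sham, 8.43 in TBI and 7.53 in Hand Acu. Eng, a TGF-beta coreceptor, was lower by -0.55, and Emcn, endomucin of veins and capillaries, was higher by 0.51. The tight junction gene Cldn5 was at -0.09 and the glucose transporter Slc2a1 at -0.00. Pericyte and meningeal markers had medians of -0.06 and -0.03.

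Myelin and neuron markers were level. Of 14 myelin and oligodendrocyte markers 7 were higher and 7 lower, with a median of 0.01 and 0 past 0.32 in either direction. Neuron markers (18) had a median of -0.01. Genes of monoamine neurons (13) had a median of -0.02, with Th, the rate-limiting enzyme of dopamine and noradrenaline synthesis, at 9.21 in Sham, 9.38 in TBI and 9.14 in Hand Acu. The 4 cholinergic genes had a median of -0.08.

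Markers of neurons from outside the brainstem varied among themselves. Of 16 forebrain markers above the floor 10 were higher and 6 lower, beside 49.3% and 50.7% of all genes, with a median of 0.05. Past 0.32 there were 4 higher and 2 lower, where 4.04% and 4.12% of all genes were. Genes of cortical neurons were among the higher ones. Slc17a7, the vesicular glutamate transporter of cortex and cerebellum, read 9.62 in Sham, 8.87 in TBI and 9.36 in Hand Acu. Neurod2, a cortical differentiation factor, read 8.50, 7.94 and 8.35, and Camk2a, the abundant kinase of forebrain synapses, read 12.01, 11.23 and 11.82. For all 3 the TBI array was the lowest. Camk2a has 2 further probe sets, at 0.34 and -0.40, and the mean of all its probe sets was at 0.01, as that of Slc17a7 was at 0.11. Other cortical genes were near 0, with Neurod6 at -0.05 and Nrgn at 0.08.

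Genes of striatal neurons went both ways. Rgs9, a regulator of dopamine and opioid receptor signalling, read 8.75 in Sham, 9.22 in TBI and 8.71 in Hand Acu, and was at 0.16 with the mean of all its probe sets. Pde10a, a striatal phosphodiesterase, read 8.48, 9.27 and 8.95. Drd2 and Adora2a were at -0.02 and -0.08, and Drd1 at 0.18. With the mean of all its probe sets Adora2a was at -1.09. The cortical factor Tbr1 read 3.05 in TBI and 3.26 in Hand Acu, far below the floor. The summed signal of the 16 forebrain markers above the floor was 14.08 in Sham, 14.09 in TBI and 14.22 in Hand Acu.

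Purkinje cell markers of the cerebellum were lower for 11 of 13, beside 50.7% of all genes, with a median of -0.10. Past 0.32, 1 of them was lower and 0 were higher, beside 4.12% and 4.04% of all genes. The lower one was Rora (-0.40), also listed as a clock gene, which averaged 0.025 over its probe sets. Aldoc is also counted among the astrocyte markers. Granule cell markers (11) had a median of -0.04. Pcp2, a Purkinje cell protein, read 11.56 in Sham, 11.01 in TBI and 10.80 in Hand Acu. Car8, found in the same cells, read 11.64, 11.29 and 11.08. Both followed the order Sham, TBI, Hand Acu downward. How far the make-up of the dissected tissue moved with the neuronal results was not tested.

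Oxt, which encodes oxytocin of the hypothalamus, was lower at 10.61 in Sham, 11.19 in TBI and 10.43 in Hand Acu, or 1.69-fold. Avp, vasopressin of the same nuclei, read 10.34, 10.82 and 10.51. Both were highest in TBI, with Avp in Hand Acu between the others. Over 30 neuropeptide and receptor genes, 15 were higher and 15 lower, with a median of -0.02. Vip and Cck were higher by 0.38 and 0.31, and Tac3, neurokinin B, was lower by -0.37. Pmch, the feeding and sleep peptide of the lateral hypothalamus, was at 0.00. The opioid receptor genes Oprm1 and Oprd1 lay below the floor.

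Receptors and channels differed gene by gene. Gria4, an AMPA receptor subunit, read 10.23 in Sham, 9.83 in TBI and 10.23 in Hand Acu, but averaged -0.038 over its probe sets. Glra2, a glycine receptor subunit, read 9.61, 9.59 and 9.08, with Hand Acu the lowest. Grm2, a presynaptic glutamate receptor, was lower by -0.52. The medians were 0.05 for 12 ionotropic glutamate receptor genes and -0.08 for 8 GABA-A receptor genes (0.001 when probe sets were averaged).

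Of 39 potassium channel genes above the floor, 20 were higher and 19 lower, with 5 higher by 0.32 or more and 0 lower, beside 4.04% and 4.12% of all genes. Of the 5, 4 had a mean log2 signal below 9, where the spread over all genes is wider. Kcnj4, an inward rectifier, read 7.85 in Sham, 7.41 in TBI and 7.95 in Hand Acu. Kcnv1, a silent subunit that modifies other channels, read 8.75, 8.31 and 8.82. In both the TBI array was the lowest. Kcng2, Kcnj14 and Kcnip1 were higher by 0.40, 0.33 and 0.32. Among sodium and calcium channel genes (19, median -0.02), Cacna2d1, the gabapentin-binding subunit, read 10.53, 10.28 and 10.79, and Scn1a, the main sodium channel of fast inhibitory neurons, read 11.73, 11.67 and 11.35.

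The phosphodiesterase and adenylyl cyclase list also takes in protein kinase genes whose names begin with Prka or Prkg. Of its 27 genes 19 were higher, beside 49.3% of all genes, with a median of 0.06. Among them were Prkg2, a cGMP-dependent kinase, at 0.57 and Pde8b at 0.43 (0.02 with the mean of its probe sets). Of 29 semaphorin, plexin and ephrin genes 21 were higher, beside the same 49.3%, also with a median of 0.06. They were led by the semaphorin receptor Nrp2 at 0.43 (0.68 averaged over its probe sets). Of 40 synaptic vesicle fusion genes 25 were lower, beside 50.7% of all genes, with a median of -0.01.

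**Figure D3:**
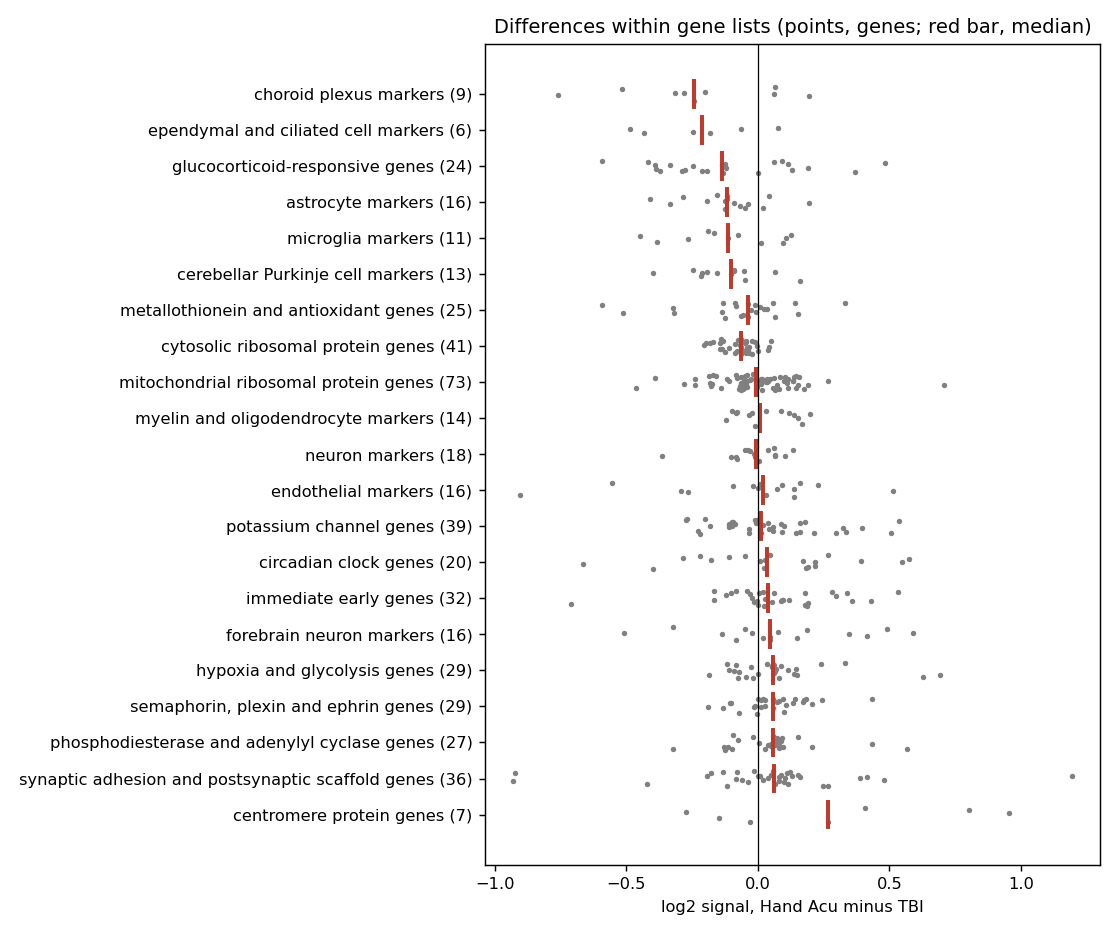
Each row is a gene list, with its number of genes above the floor in brackets. The lists shown are a selection from 83. Over the 78 lists with at least 4 members above the floor, 55 medians lay within 0.05 of 0. Each point is 1 gene placed by its log2 difference, Hand Acu minus TBI. Red bars are list medians, from -0.24 for choroid plexus markers to 0.27 for centromere protein genes, and the vertical line marks 0.

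Genes of large protein complexes had medians near 0. Of 41 cytosolic ribosomal protein genes by name 37 were lower, against 50.7% of all genes, with a median of -0.06 and 0 past 0.32. Rpl19 and Rps3 were the lowest, both at -0.20. The median log2 signal of this list was 12.99. Over all 646 genes at a signal of 12 and above the median difference was -0.02, against 0.02 in the dimmest band, so the share of all genes is not matched for signal. Mitochondrial ribosomal protein genes were split 35 higher and 38 lower, and the largest difference was that of Mrps9, at 9.51 in Sham, 8.98 in TBI and 9.69 in Hand Acu (0.71, or 0.44 averaged over its probe sets). Proteasome genes were split 22 higher and 23 lower. Complex I genes (34, of which 23 were lower) and ATP synthase genes (16, of which 11 were lower) both had a median of -0.02.

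Over all 83 lists, 78 had at least 4 members above the floor, and 55 of their medians lay within 0.05 of 0. Of the rest, 7 were at -0.1 or below and 2 at 0.1 or above, the latter both of short lists. The 5 pituitary and muscle markers had 0.20, which turned to -0.051 when probe sets were averaged. The 7 centromere protein genes above the floor had 0.27, or 0.15 when 17 genes were counted with no floor.

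Centromere proteins assemble the kinetochore in dividing cells. Cenpx, which also serves in DNA repair, read 8.22 in Sham, 8.27 in TBI and 9.22 in Hand Acu, and Cenpn read 7.75, 7.50 and 8.30. Cenpv, which also acts on the cytoskeleton, read 8.25, 8.48 and 8.88. In all 3 Hand Acu was the highest array. The mitotic members Cenpa, Cenpe and Cenpf were below the floor, and Cenpb, which binds centromeric repeats, was lower by -0.27.

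The remaining genes with the highest differences are given by what they encode, and no share of such genes was counted. Tnfrsf11b, osteoprotegerin, the decoy receptor of the bone factor RANKL, read 8.47 in Sham, 7.48 in TBI and 8.30 in Hand Acu. Ptpru, a receptor tyrosine phosphatase, read 7.79, 7.34 and 8.28, and Axin1, the scaffold that marks beta-catenin for destruction, read 8.28, 7.92 and 8.72. TBI was the lowest array for these 3. Slc4a11 and Slc9a2, ion transporters of the membrane, were higher by 0.93 and 0.85, and Ric3, a chaperone of nicotinic receptors, by 0.85. Paqr9 and Tmem150a, both membrane proteins, differed by 0.73 and 0.77.

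Synm, synemin, an intermediate filament protein of muscle and astrocytes, read 9.11 in Sham, 8.82 in TBI and 9.72 in Hand Acu. Tchp, trichoplein of keratin filaments and centrioles, read 8.33, 8.01 and 9.02. Hand Acu was the highest for both, and Tchp averaged 0.58 over its probe sets. Dnal1, a dynein light chain of cilia, was higher by 0.73. The ubiquitin ligase adaptors Fbxo34 and Klhl20 were higher by 0.80 and 0.78, and Fbxl5, the iron-sensing F-box protein, by 0.70. Plaa, a ubiquitin-binding protein, was higher by 0.75 in its brightest probe set and lower by -0.13 in the other. Utp11, which processes ribosomal RNA precursors, Angel2, an RNA phosphatase, Tatdn1, a nuclease, and Lyplal1, a thioesterase, differed by 0.82, 0.76, 0.86 and 0.81. Averages over all probe sets were 0.39 for Dnal1, 0.31 for Plaa, 0.41 for Angel2 and 0.26 for Ncoa3. The nuclear factors Aff2 and Ncoa3 differed by 0.74 and 0.75, with the other Ncoa3 probe set at -0.23.

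**Figure D4:**
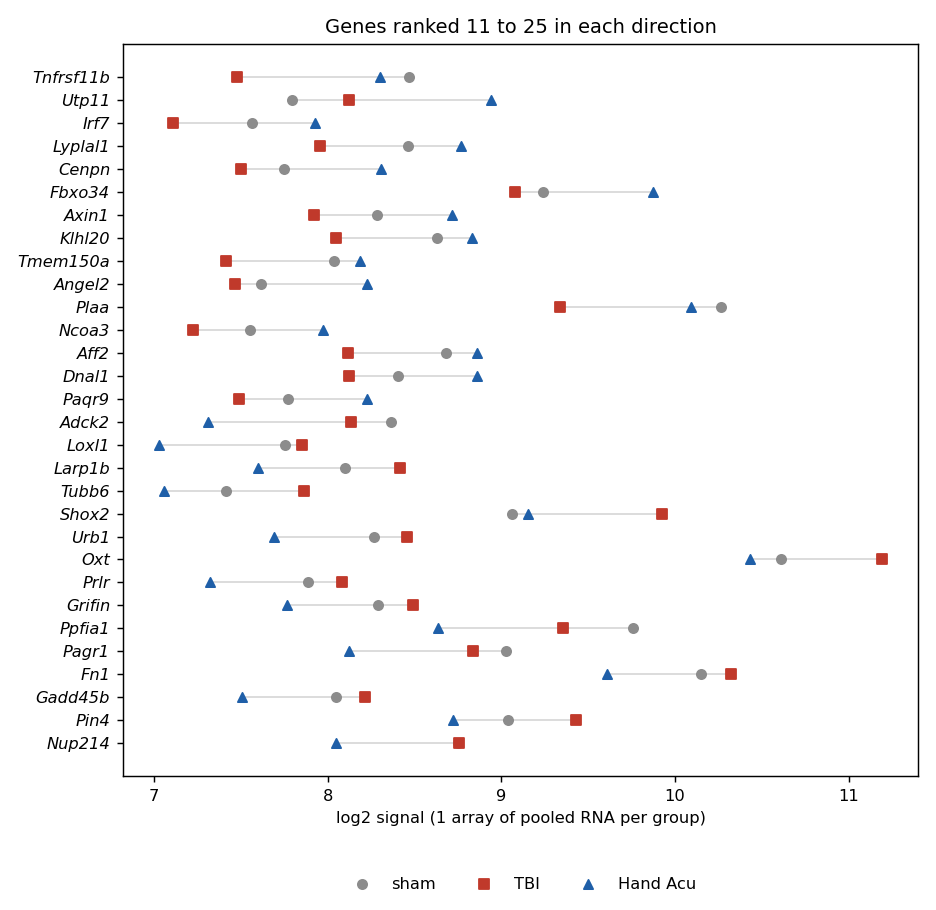
Each row is a gene, ranked 11 to 25 by the log2 difference between Hand Acu and TBI in each direction among 9241 genes. Circles are Sham, squares TBI and triangles Hand Acu, 1 array of pooled RNA each, on a log2 signal axis. In the top row Tnfrsf11b has TBI at 7.48 with Sham at 8.47 and Hand Acu at 8.30, and Shox2 has TBI alone high, at 9.93.

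The other genes with the lowest differences are given by what they encode, beginning in the nucleus. Phf14, a PHD finger reader of histones, read 10.45 in Sham, 9.73 in TBI and 8.81 in Hand Acu in its brightest probe set, with -0.40 and -0.09 in the others above the floor. Nup214, a nuclear pore protein, read 8.75, 8.76 and 8.05, with its other probe set at 0.00. Shox2, a homeobox factor of brainstem and thalamic neurons, read 9.06, 9.93 and 9.15, high on the TBI array alone. Averages over all probe sets were -0.13 for Phf14, -0.19 for Nup214 and -0.31 for Shox2. Urb1, a ribosome assembly protein, differed by -0.77, and Pagr1, a partner of histone methyltransferases, and Pin4, a prolyl isomerase, by -0.71 each. Other pore genes went both ways, with Nup107 at -0.60, Nup85 at -0.42 and Nup62 at 0.42.

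Slco1a5, an organic anion transporter, read 8.35 in Sham, 8.72 in TBI and 7.81 in Hand Acu. Vwa8, a mitochondrial ATPase, read 9.40, 9.19 and 8.36, and Adck2, a mitochondrial kinase-like protein, read 8.36, 8.14 and 7.31. Hand Acu was the lowest array for these 3, with averages over all probe sets of -0.44 for Vwa8 and -0.15 for Adck2. Ggps1, which makes the lipid anchor of small GTPases, was lower by -0.85, and its other probe set was at 0.16. Tubb6, a beta-tubulin, was lower by -0.81 in its brightest probe set. The mean of all its probe sets, which takes in one far below the floor, was 1.44 higher. Ppfia1, liprin-alpha-1 of synapses and focal adhesions, was lower by -0.72 with its other probe set at 0.01. Larp1b, an RNA-binding protein, was lower by -0.82, with 0.31 and -0.07 in others. Grifin, a galectin-like protein, differed by -0.73.

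Among the 1643 genes with a mean log2 signal of 11 or more, differences were small, with an SD of 0.10. There, 10 were higher by 0.32 or more and 12 lower. Tomm22, a mitochondrial import receptor, read 11.46 in Sham, 11.45 in TBI and 11.90 in Hand Acu, and Tmem14a read 10.86, 10.88 and 11.31. In both, Sham and TBI were level and Hand Acu was higher. Tcf25 read 13.09, 12.78 and 13.10, and Enc1, an actin-binding protein of neurons, read 11.89, 11.75 and 12.09, although the means of all their probe sets were at 0.03 and 0.02. Nptxr, the receptor of neuronal pentraxin, was higher by 0.36 in its brightest probe set. It was at -0.61 with the mean of all, which takes in a probe set far below the floor. Secisbp2l and Mtpn were higher by 0.36 and 0.33, and by 0.17 and 0.08 on average over all their probe sets.

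Myh1, by its annotated name a fast skeletal myosin, heads the bright genes at 13.02 in Sham, 12.83 in TBI and 13.50 in Hand Acu. Its 5 probe sets differed by 0.67, -0.24, 0.02, -0.31 and -0.39, and their mean was -0.051. Here 1 probe set decides the gene's direction. The muscle genes Ckm, Tnnt3, Myh2 and Actn3 lay below the floor, at 5.16, 5.12, 5.21 and 3.04 in TBI. Of 15 pituitary and muscle markers on the array, 5 lay above it, Myh1 among them. Whether these probe sets read that myosin was not tested.

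The 12 bright genes with the lowest differences include Hbb and Scn1a. Ckb, brain creatine kinase, read 12.05 in Sham, 12.09 in TBI and 11.70 in Hand Acu. Plat, tissue plasminogen activator, read 11.10, 11.48 and 11.08, and Slc38a2, a glutamine and alanine transporter, read 12.16, 12.35 and 12.01. TBI was highest for these 3. Uchl1, an abundant neuronal ubiquitin hydrolase that is used as a blood marker of brain injury, read 11.35, 11.57 and 11.20. Psmd11, a proteasome subunit, differed by -0.41, and Cryab, a small heat shock protein of oligodendrocytes and astrocytes, by -0.33. Iscu, which assembles iron-sulphur clusters, Ccdc47 of the endoplasmic reticulum and Larp1, which controls ribosomal protein mRNAs, differed by -0.34 each. Fkbp2, a prolyl isomerase, differed by -0.33. Averages over all probe sets were smaller for Larp1 (-0.09) and Fkbp2 (-0.08).

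**Figure D5:**
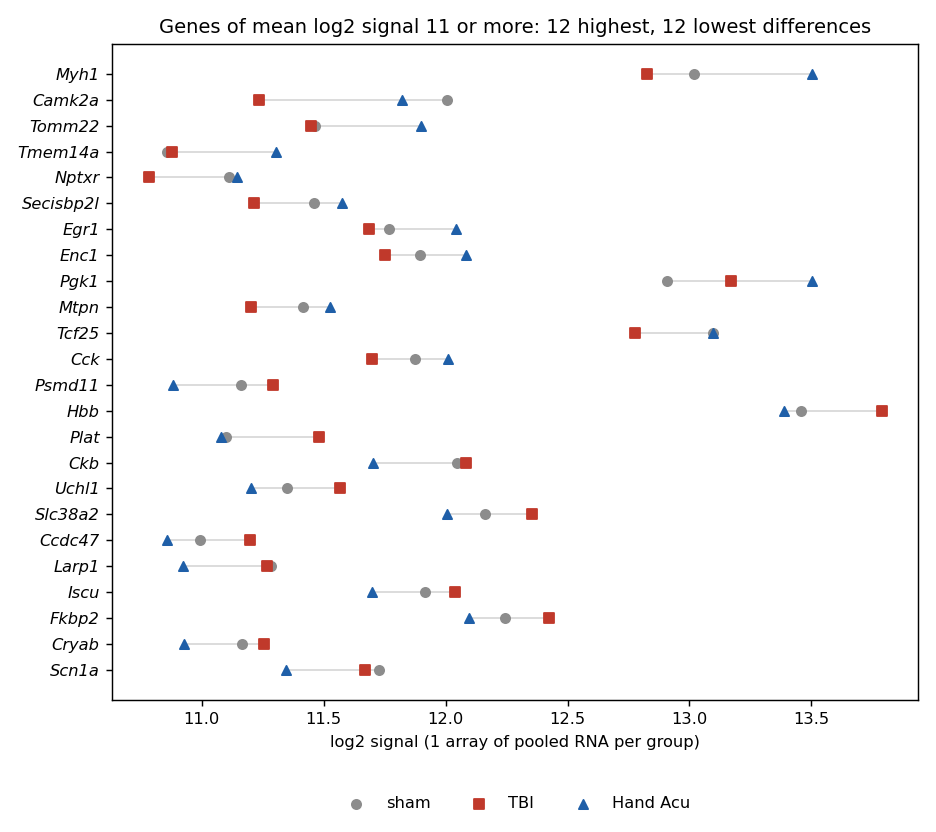
Each row is a gene with a mean log2 signal of 11 or more, 12 with the highest and 12 with the lowest difference between Hand Acu and TBI. Circles are Sham, squares TBI and triangles Hand Acu, 1 array of pooled RNA each, on a log2 signal axis. For Tomm22 Sham and TBI lie together at 11.46 and 11.45 with Hand Acu at 11.90, and for Hbb TBI alone is high, at 13.79.

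Mef2c, a transcription factor of neurons and microglia, was singled out after its values were seen. Its brighter probe set read 11.16 in Sham, 11.09 in TBI and 11.35 in Hand Acu, and the other read 9.46, 8.80 and 10.01. Hand Acu was the highest array in both, by 0.26 and 1.21 over TBI.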

How the data were processed

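Brainstem RNA was measured on Affymetrix rat arrays, 1 per group. The deposited values are log2 signals; per the submitters' processing notes they come from MAS5, Affymetrix's probe set summary, whose version is not given. The log base and the scaling to a common trimmed mean were read from the values, and the genome build was not given in the sources used here. Detection calls were not used here.

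Names came from GEO's platform annotation, dated 2016: of 31042 that are not controls, 20826 had 1 symbol, 436 several and 9780 none. Of 14217 genes, 14167 were found in RefSeq. A gene is its brightest probe set with 1 symbol, kept at a mean log2 signal of 7.44 or more. Named genes are up to 25 highest and lowest, 12 of each at a mean of 11 or more, 10 of each whose probe sets above the floor all go one way, and up to 4 members of a list by size, or all of a short family; other list members were named after their values were seen. Genes and lists were chosen with earlier results of these data known. Families taken by name can hold genes that share only the name.

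No test was possible with 1 array per group, so thresholds of 0.32 (a ratio of 5 to 4), 1.5-fold and 2-fold stand for calls. The alternatives tried were quantile normalization, centring arrays on their medians, no floor, a floor of 9.25, an offset of 50, and averaging a gene's probe sets, all or those above the floor. Python 3.11.15, numpy 2.4.6, pandas 2.3.3 and matplotlib 3.10.9 were used, and the scripts were tested on simulated data. Motifs were searched by letters on both strands of the RefSeq promoter table of GRCr8.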

Additional observations from a re-analysis of the deposited data

How the results depend on the processing

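Quantile normalization and centring on the median left all counts within 1.5 times and reversed no named gene. The genes at least 1.5-fold higher and lower numbered 1134 and 748 with no floor, 9 and 11 with a floor of 9.25, 34 and 32 with an offset of 50, 180 and 156 when all probe sets of a gene were averaged, and 3 and 1 at a 2-fold threshold, against 57 and 55. At 0.32 or more, no floor gave 2026 and 1504, the higher floor 83 and 94, and averaging gave 597 higher, against 373 and 381. Of the 112 genes at least 1.5-fold apart, 77 were among the 336 found with that average and 95 among the 99 with the mean of probe sets above the floor.

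On averaging all probe sets these reversed: Bid to 0.45, Edem1 to -0.029, Gria4 to -0.038, Kif26b to 0.092, Myh1 to -0.051, Nptxr to -0.61, Pfkfb4 to -0.17, Rgs12 to 0.13, Rgs9 to 0.16, Rora to 0.025, Stx1a to -0.15 and Tubb6 to 1.44. So did the medians of pituitary and muscle markers (-0.051), hypoxia and glycolysis genes (-0.020), GABA-A receptor genes (0.001) and cell polarity genes (0.026). Gria4, Myh1 and the pituitary and muscle median also reversed, to the same values, with the mean of probe sets above the floor. No other named gene reversed with that mean. The mean of all probe sets takes in probe sets below the floor. The dim one of Tubb6 read 0.79 in TBI and 4.48 in Hand Acu, and that of Nptxr 4.47 and 2.88. Why probe sets of a gene differ was not tested. No paired analysis was possible because each group is 1 array and the labels carry no replicate numbers. The number of arrays limits the precision.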

Other observations

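Probe sets without a gene name in the annotation used here were held to the same floor. Each was counted singly, whereas a named gene is its brightest probe set, so the shares below are of unlike units. Their signal levels were not matched. Of 9780 unnamed probe sets, 3308 lay above the floor, with an SD of differences of 0.21. At 1.5-fold or more, 43 (1.30%) were higher and 21 (0.635%) lower on the Hand Acu array, beside 0.617% and 0.595% of named genes. The highest was 1386178_at, which read 8.07 in Sham, 7.11 in TBI and 8.59 in Hand Acu, followed by 1385241_at at 7.90, 7.06 and 8.22. TBI was the lowest array for both. The lowest was 1398229_at, at 8.26, 9.02 and 7.80.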
